A study of Mus musculus with 7 samples.

Results

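The gene expression changes in mouse nasal tissue after 8 weeks of inhaled diesel exhaust particles (DEP) are described here, from the 3 arrays labelled DEP 8 weeks out of 7 arrays in all. BALB/c mice, all female and aged 6 weeks, inhaled DEP from a nebulizer at 100 ug/m3 for 1 hour a day on 5 days a week, and control mice received saline. Each array carried Cy5-labelled RNA from DEP mice and Cy3-labelled RNA from control mice, so that each array gives a ratio of DEP over control for every probe. The other 4 arrays hold the same comparison after 4 weeks and are used where the exposure times are set side by side. The tissue was the septum and turbinates. The number of mice behind each array is not given in the sources used here, and the labels call the replicates biological, so the p-values measure the spread between these arrays. The dyes were not swapped, and a dye effect and an effect of DEP cannot be told apart. The 8-week arrays share 1 slide and the 4-week arrays another, and a slide effect and an effect of time cannot be told apart either.

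The nasal cavity holds an olfactory epithelium, in which sensory neurons with odorant receptors stand among sustentacular cells rich in detoxifying enzymes, and a respiratory epithelium with ciliated and secretory cells. Glands beneath both epithelia release odorant-binding lipocalins, secretoglobins, mucins and antimicrobial proteins into the mucus. Salivary and lacrimal glands, skin with hair follicles and sebaceous glands, teeth, bone and muscle lie close by, and their transcripts can enter a dissected sample. Of 38 defining markers of such cells, 32 stood well above background on every array in DEP and in control, including every marker of olfactory neurons, sustentacular cells, ciliated cells, glands, skeletal muscle and tooth. The exceptions were Sprr3, Cxcr2, Cd79a, Ms4a1, Cd3g and Plin1, and Cd79a and Cd3g were not well above background in either channel on any array. In bulk tissue, fewer cells of a type and less RNA per cell cannot be told apart.

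On the 3 arrays, between 20100 and 26927 probes per channel were well above background and no spot was saturated. The log2 ratios of the 3 arrays correlated with r between 0.70 and 0.88 across probes, a description over genes that are not independent. The median SD of a probe over the 3 arrays was 0.113 on the log2 scale, against 0.0826 to 0.107 for repeated spots of 1 probe on 1 array.

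By limma's moderated test with Benjamini-Hochberg adjustment (threshold 0.05), 4318 of 20892 gene names tested (20.7%) were higher in DEP and 3548 (17%) were lower. Counts of list members below are to be read against these shares. Under the study's thresholds, a p of 0.01 (taken here without adjustment) together with a 2-fold change, 436 (2.09%) were higher and 175 (0.838%) were lower. The median log2 ratio of all names was 0.02, with quartiles of -0.16 and 0.20. The balance of directions depended on the scaling, since 54.9% of the calls were higher in DEP after loess normalization and 27.7% after median centring alone, which moved the median of all genes to -0.10. Among the 2-fold changes these shares were 71.4% and 43.4%. Of the 436 names that were 2-fold higher, 286 (65.6%) were positive on all 4 arrays of 4 weeks, against 29.2% of all names, and of the 175 that were lower, 120 (68.6%) were negative on all 4, against 24.3%. The arrays of both times carry the dyes the same way round. In the plot of ratio against intensity, the named genes lie far outside the bulk of the names.

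**Figure D1:**
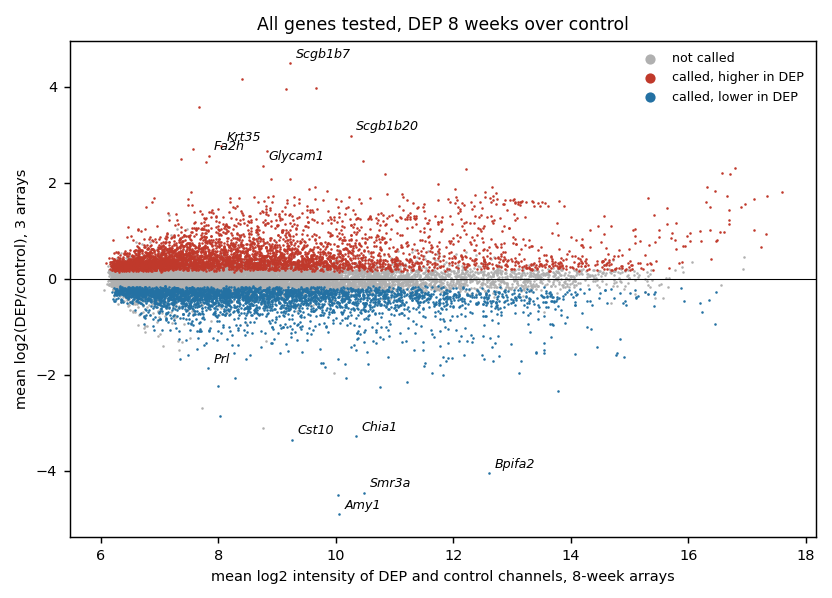
Mean log2 ratio of DEP over control on the 3 arrays of 8 weeks (vertical axis) against the mean log2 intensity of both channels (horizontal axis) for the 20892 names tested, with red points for the 4318 called higher, blue for the 3548 called lower and grey for the rest. Amy1 at -4.90 and Scgb1b7 at 4.49 lie at opposite ends.

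The deepest falls were in proteins that salivary and lacrimal glands secrete. Of 17 such genes listed, 12 were tested, 9 fell, all of them at least 2-fold, 1 rose and 2 were not called. The median of the 12 was -1.48, -1.65 and -1.68 on the 3 arrays. Amy1, salivary amylase, had log2 ratios of -5.07, -4.81 and -4.81 and was 29.8-fold lower (adjusted p = 3.28e-08). Smr3a, an androgen-regulated protein of the submaxillary gland, had -4.41, -4.44 and -4.50 (adjusted p = 3.53e-08), and its other probe gave -2.87. All 3 arrays lay far below 0 for both genes. Bpifa2, the parotid secretory protein, stood at -4.17, -3.84 and -4.13 with a mean of -4.05 (adjusted p = 5.43e-07). Amy2a5, whose sequence is close to that of Amy1 and whose probes may share its signal, stood at -2.86. Prb1 and Prpmp5, proline-rich salivary proteins, fell, by 2.06 on the log2 scale for the former, and Smgc, a submandibular gland protein, fell by 1.26. At 4 weeks Amy1 and Smr3a were both at -0.07, and the differences between the times had adjusted p-values of 5.48e-07 and 8.84e-07.

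The Dcpp proteins of demilune and parotid cells fell together, with Dcpp1 at -1.95, -2.13 and -1.91, Dcpp3 at -1.65, -1.71 and -1.75, and Dcpp2 at -1.10, -1.18 and -1.13. These paralogs are alike enough for their probes to share signal, and their promoters show how alike they are. The stretches below are from RefSeq on GRCm38, plus strand, at chr17:23880720-23880803, chr17:23898561-23898644 and chr17:23917299-23917382, and the capitals mark a run of 54 bases held in the 250 bases before the start by all 3 and by 3 of 32851 promoters (0.009%). The run was chosen as the longest one that all 3 share, so its presence in them was fixed in advance.
Dcpp1: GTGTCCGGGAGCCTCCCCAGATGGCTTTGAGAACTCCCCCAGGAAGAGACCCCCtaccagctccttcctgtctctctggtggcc
Dcpp2: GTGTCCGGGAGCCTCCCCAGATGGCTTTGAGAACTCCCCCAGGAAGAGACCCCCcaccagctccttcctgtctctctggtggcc
Dcpp3: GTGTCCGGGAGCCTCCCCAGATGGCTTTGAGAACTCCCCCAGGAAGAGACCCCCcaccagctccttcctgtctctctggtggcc

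Cst10, a cystatin that is in the salivary and lacrimal gland list above, stood at -3.21, -3.38 and -3.46. Other secreted proteins outside that list also fell. Chia1, acidic mammalian chitinase, stood at -3.19, -3.22 and -3.44. Bpifb2, a BPI-fold protein, had a mean of -2.25, and 5 of 10 BPI-fold proteins tested fell while 3 rose. Aqp8, a water channel, stood at -2.15. Among mucins and goblet cell genes, 5 of 12 fell and 1 rose, with Muc5b, a gel-forming mucin of airway glands, at -1.29, -1.49 and -1.83, and Tff2, a trefoil peptide, at -1.61, -1.64 and -1.67. Muc5b had been 0.25 at 4 weeks (adjusted p of the difference = 0.000106). Scgb1a1, the club cell secretoglobin, did not pass, with 0.14, 0.00 and -0.05.

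**Figure D2:**
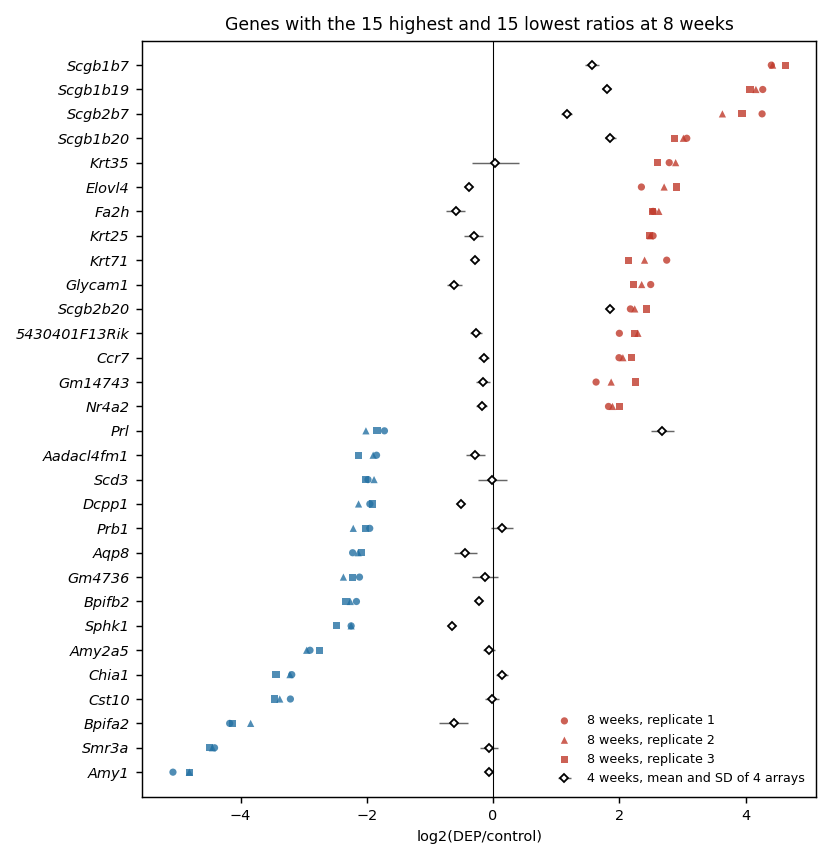
Log2 ratio of DEP over control (horizontal axis) for the genes with the 15 highest and 15 lowest means at 8 weeks, each filled symbol being 1 of the 3 arrays, with open diamonds and bars for the mean and SD of the 4 arrays of 4 weeks. The 3 symbols of a gene lie together, while most of the diamonds lie nearer 0. Among those furthest from 0 are secretoglobins such as Scgb1b7 at 1.56 and Prl at 2.68. Others lie between, such as Sphk1 at -0.66 and Fa2h at -0.59.

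The genes with the largest rises were androgen-binding secretoglobins, small secreted proteins of nasal, lacrimal and salivary glands. All 11 of the members tested, of 17 listed, rose, 10 of them at least 2-fold, with a median of 1.57. Scgb1b7 had 4.41, 4.43 and 4.63 on the 3 arrays, a 22.5-fold rise (adjusted p = 3.53e-08). Scgb1b19 had a mean of 4.17 and Scgb2b7 of 3.94, with their control channel well above background on 2 arrays each. All arrays of these genes lay far above 0. Scgb1b2 and Scgb2b2 rose less, to 0.50 and 1.57, than their 3.56 and 3.64 at 4 weeks (adjusted p of the difference = 1.03e-06 and 6.06e-05), whereas Scgb1b7 was at 1.56 then. The genes are near-identical copies and their probes may share signal; the 2 probes of Scgb2b20 gave 2.28 and 4.56.

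Lipocalins that bind small odorants and pheromones rose as well. Of 7 odorant-binding proteins and lipocalins tested, 5 rose and 2 were not called. Obp1a, an odorant-binding protein of nasal glands, had 1.21, 1.55 and 1.75 (adjusted p = 3.03e-05), Obp2a 1.79, 1.56 and 0.92, and Lcn11 1.79, 1.59 and 1.32. Of 11 major urinary proteins, lipocalins that carry pheromones and are highly alike, 7 rose, 6 of them at least 2-fold, and 4 were not called. Mup4, which is counted in both of these lists, stood at 1.74, 1.83 and 1.86, and Mup19 stood at 1.71, 1.87 and 1.88. Both were well apart from Mup2 at 0.05 (adjusted p = 0.782). The promoters of members that rose and of members that did not look alike. The stretches below are from RefSeq on GRCm38, minus strand, at chr4:61782225-61782304, chr4:59960668-59960747, chr4:60139857-60139936 and chr4:62150842-62150921, with the letters TATATAA in capitals. Searched on both strands in the 250 bases before the start, these letters are in 8 of 8 promoters of the family and in 3.04% of all promoters. The letters were set by hand for this family, so their presence in the printed promoters is a description and not a test.
Mup19: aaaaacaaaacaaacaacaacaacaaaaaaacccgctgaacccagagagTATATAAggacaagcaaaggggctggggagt
Mup4: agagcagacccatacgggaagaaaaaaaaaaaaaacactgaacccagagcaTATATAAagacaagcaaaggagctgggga
Mup2: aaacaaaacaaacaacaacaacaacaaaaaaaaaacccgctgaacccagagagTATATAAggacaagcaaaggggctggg
Mup21: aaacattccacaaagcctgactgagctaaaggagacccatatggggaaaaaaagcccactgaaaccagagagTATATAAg

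The Klk1 kallikreins, serine proteases made in abundance by salivary gland ducts, rose. All 11 tested of 14 rose, 9 of them at least 2-fold, with medians of 1.38, 1.31 and 1.24 on the 3 arrays. This list and the major urinary protein list were added after values had been seen. Klk1, tissue kallikrein, had 1.54, 1.38 and 1.55, Klk1b5 had 1.56, 1.59 and 1.51, and Klk1b26 had 1.68, 1.82 and 1.73 by its brightest probe and 0.54 by another. At 4 weeks Klk1 was at -0.23 (adjusted p of the difference = 9.52e-06). The family lies in 1 cluster and its copies are hard to tell apart by probe. The promoters below, on GRCm38, plus strand, at chr7:44012598-44012677, chr7:44216394-44216473, chr7:44112593-44112672 and chr7:43975981-43976060, share the run in capitals, CCTGAGGAGCCTC, which is in 6 of 14 promoters of the family and in 7 of all promoters (0.021%), both strands searched. The run was chosen as the longest one that the printed promoters share, so its presence in them was fixed in advance.
Klk1b26: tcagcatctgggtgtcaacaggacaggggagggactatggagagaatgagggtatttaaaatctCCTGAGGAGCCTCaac
Klk1b5: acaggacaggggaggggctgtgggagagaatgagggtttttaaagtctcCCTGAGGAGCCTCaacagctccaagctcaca
Klk1b22: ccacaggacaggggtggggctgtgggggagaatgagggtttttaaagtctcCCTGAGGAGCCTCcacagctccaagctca
Klk1b9: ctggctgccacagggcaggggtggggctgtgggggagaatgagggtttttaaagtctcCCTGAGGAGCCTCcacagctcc

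Genes of lipid synthesis and storage fell. These lists were also added after values had been seen. Of 19 genes of fatty acid synthesis and desaturation, 17 fell, 10 of them at least 2-fold, and 2 were not called, with a median of -1.03. Scd3, a stearoyl-CoA desaturase, had -1.98, -1.89 and -2.02 (adjusted p = 5.23e-06). Acly, which makes cytosolic acetyl-CoA, had -1.10, -1.08 and -1.11, and Fasn, fatty acid synthase, had a mean of -1.11. The 3 arrays were close together for these enzymes. Srebf1, a regulator of lipid synthesis, fell by 0.46. At 4 weeks the median of the 19 was already below 0, at -0.23. Scd1, another desaturase, was at -0.93 then and at -1.19 at 8 weeks (adjusted p of the difference = 0.205), and Elovl6, a fatty acid elongase, was at -0.52 and -1.05 (0.00184), whereas Fasn was at -0.01 at 4 weeks (0.000242).

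Of 21 genes of lipid droplets and PPAR targets tested, 19 fell, 12 of them at least 2-fold, and 1 rose. Mogat1, an acyltransferase of triglyceride synthesis, had -1.76, -1.64 and -1.87 (adjusted p = 3.51e-06). Plin2, a coat protein of lipid droplets, had -1.41, -1.59 and -1.66, and Cidea, a droplet protein of sebocytes and brown fat, had -1.31, -1.36 and -1.34. Pparg, a nuclear receptor of fat cells and sebocytes, fell by 0.84. At 4 weeks the median of the 21 was -0.33, against -1.08 at 8 weeks. In the list of adipocyte genes, which shares members with the lists above, 10 of 14 fell and 0 rose. Cholesterol synthesis did not move one way, with 10 of 22 genes lower and 4 higher. Sqle, squalene epoxidase, stood at -1.62 and Hmgcs1, which makes the precursor HMG-CoA, at 0.69.

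**Figure D3:**
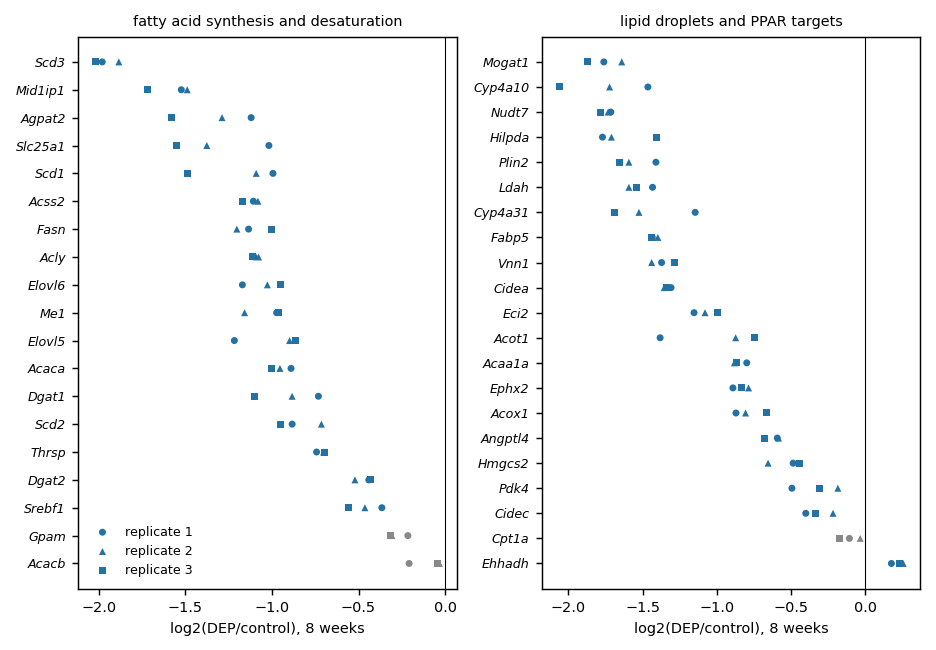
Log2 ratio of DEP over control at 8 weeks (horizontal axes) for the genes of fatty acid synthesis (left) and of lipid droplets and PPAR targets (right), each symbol being 1 of the 3 arrays, blue where the gene was called at an adjusted p of at most 0.05 and grey where it was not. Of the genes tested, 17 of 19 and 19 of 21 were called lower.

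Sphingolipid genes moved both ways, with 9 of 20 lower and 5 higher. Fa2h, which hydroxylates fatty acids for ceramides, had 2.53, 2.62 and 2.53 (adjusted p = 6.9e-07), with its control channel well above background on 2 arrays. Elovl4, which makes very long chain fatty acids, had 2.35, 2.71 and 2.91 by its brightest probe and 1.49 by the other, and Acer1, a ceramidase of skin, had 1.62, 1.54 and 1.44. Sphk1, a sphingosine kinase, had -2.25, -2.25 and -2.48, Sptlc1, a subunit of serine palmitoyltransferase, stood at -1.67 and Cers4, a ceramide synthase, at -1.54. Fa2h and Elovl4 had been at -0.59 and -0.39 at 4 weeks.

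Hair genes rose. In a list of the hair shaft and inner root sheath added after values had been seen, 13 of 18 tested rose and 0 fell, and 7 of the 18 passed the filter through 1 channel. Krt35, a hair shaft keratin, had 2.79, 2.89 and 2.60 (adjusted p = 7.67e-06), and Tchh, trichohyalin, had 1.52, 1.70 and 1.74. Krt71 and Krt25, keratins of the inner root sheath, stood at 2.43 and 2.50, with the control channel well above background on 2 arrays and on 1. Of 29 keratin-associated proteins tested, 21 rose and 0 fell, and 9 of the 29 passed the filter through 1 channel; Krtap19-2 was not well above background in any control channel and was at least 3.04-fold higher. A member that passes through 1 channel enters because its signal is higher there, so neither count gives support for a direction. Epithelial keratins were mixed, with 6 of 22 higher and 10 lower. Krt14, of basal cells, stood at 0.73 and Krt10, of upper skin layers, at 0.84, while Krt6b and Krt16, of wounded and oral epithelium, stood at -1.32 and -0.75. Cornified envelope genes fell in 14 of 23 and rose in 2, with Sprr2d, from a family of like copies, at a mean of -1.84. Of these 23, 4 passed the filter through 1 channel and give no support for a direction. Krt1, of upper skin layers, had 1.84, 1.49 and 0.39 (adjusted p = 0.0106) and lost its call without replicate 1 or replicate 2.

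Enamel and dentin matrix genes rose in 8 of 9 tested, and 0 fell. Amtn, an enamel protein, had a mean of 1.68 (adjusted p = 1.69e-05), Ambn, ameloblastin, had 1.63, 1.74 and 1.20, and Dspp, a dentin protein, had a mean of 1.41. Ambn and Dspp had been at -2.41 and -1.17 at 4 weeks (adjusted p of the difference = 3.74e-06 and 3.87e-06), and the sign of the list's median turned from -1.17 to 0.92. Bone and cartilage genes rose in 7 of 20 and fell in 2, against 20.7% and 17% of all names. Collagens rose in 4 of 16, a share near the 20.7% of all names, and fell in 0. Col3a1 stood at 0.91 and Col1a1 at 0.67, and the median of the collagens, 0.13, became -0.10 under median centring. Tooth genes mostly rose, 15 of 24 skeletal muscle genes fell (2 rose), and the gland lists above moved in both directions. The part of tissue composition in any of the results was not tested. Ckm, muscle creatine kinase, stood at -1.32, Acta1, skeletal actin, at -0.95, and Myh4, a fast myosin, at 0.82. Atp2a1, a muscle calcium pump, was at -1.04.

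Genes of lymph nodes and of B cells rose in most of the members tested. In a list of lymph node and high endothelial venule genes added after values had been seen, 9 of 11 rose and 1 fell. Glycam1, a ligand for L-selectin on venules, had 2.50, 2.35 and 2.22 (adjusted p = 1.24e-06), and Ccr7, a homing receptor of lymphocytes and dendritic cells, had 1.99, 2.06 and 2.19. They had been at -0.61 and -0.15 at 4 weeks. Chst4, a sulfotransferase of high endothelial venules, fell, at -0.91. Cxcl13, a B cell chemokine, at 0.35 (adjusted p = 0.0118) lost its call without replicate 2 or replicate 3. Of 10 genes of B cells and IgA tested, 7 rose and 0 fell. Pigr, which carries IgA across epithelia, had 1.63, 1.81 and 1.48, and Jchain, which joins IgA units, had 0.77, 0.82 and 0.91. T and NK cell genes rose in 3 of 10, a share near the 20.7% of all names, and Cd4, a T cell co-receptor, stood at 0.63 by its brightest probe and 0.12 by another. MHC class II genes rose in 4 of 10, against 20.7% of all names, where 3 of the 10 passed the filter through 1 channel.

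Neutrophil genes and their chemokines fell in 5 of 11 tested and rose in 2. S100a8 and S100a9, calcium-binding proteins abundant in neutrophils and also made by squamous epithelium, had means of -1.78 and -1.80, and S100a9 had -1.80, -1.71 and -1.89 (adjusted p = 1.96e-06). Camp, cathelicidin, stood at -1.33 and Mpo, myeloperoxidase, at -1.26. Csf3r, the receptor for granulocyte colony-stimulating factor, rose with 1.20, 1.09 and 0.91. Cxcl1, a neutrophil chemokine, was at 0.09 (adjusted p = 0.397), against -2.05 at 4 weeks. Of 13 genes of the IL-1 and IL-6 pathway tested, 3 rose, a share near the 20.7% of all names, and 0 fell. The 3 were Nfkbia, an inhibitor of NF-kB, at 0.53, Socs3, a feedback inhibitor of cytokine signals, at 0.36, and Il1r1, the IL-1 receptor, at 0.32. Nfkbia and Socs3 were not called under median centring, and Il1r1 lost its call without replicate 3. Erythroid genes fell in 7 of 9, with Hbb-b1 and Hba-a1, globins whose copies are alike, at -1.13 and -0.56.

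Genes of heme synthesis and of defence against oxidants fell. In a list of heme synthesis added after values had been seen, 6 of 8 fell. Alas1, the first enzyme of the pathway, had -1.28, -1.22 and -1.22 (adjusted p = 3.8e-06), against 1.01 at 4 weeks. In a list of Nrf2, the regulator of antioxidant genes, and its targets, 15 of 22 tested fell and 2 rose. Nqo1, a quinone reductase, had -0.74, -0.59 and -0.92, Gstm1, a glutathione transferase, stood at -0.83, and G6pdx and Tkt, of the pentose phosphate pathway, at -0.94 and -0.95. Hmox1, heme oxygenase, and Gclc, of glutathione synthesis, did not pass, at -0.19 and -0.01. In a list of the aryl hydrocarbon receptor, which responds to polycyclic hydrocarbons, its partner and its targets, 3 of 9 tested fell and 0 rose. Of all names 17% fell. Nqo1 is in this list as well as in that of Nrf2. Cyp1a1, a classic target, had 0.08, 0.05 and 0.11 (adjusted p = 0.451), and Cyp1b1 was at -0.03. Phase II conjugation genes fell in 8 of 16 and rose in 1, with Mgst1, a microsomal glutathione transferase, at -1.21.

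**Figure D4:**
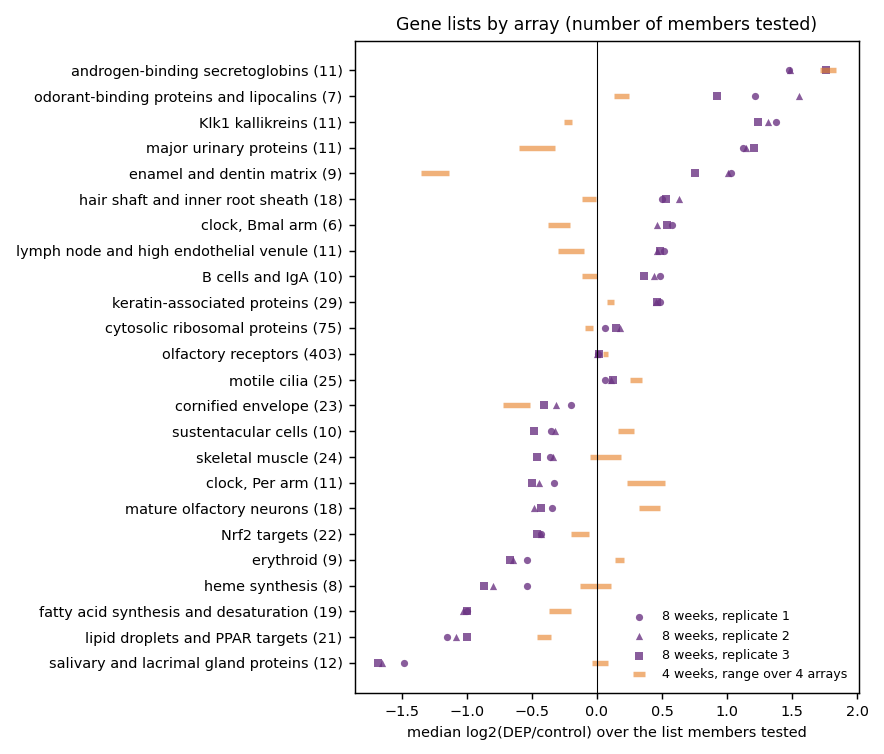
Median log2 ratio of DEP over control over the tested members of each gene list (horizontal axis), with 1 symbol for each of the 3 arrays of 8 weeks, orange bars for the range over the 4 arrays of 4 weeks and the number of members tested in brackets. Salivary and lacrimal gland proteins lie lowest at 8 weeks, with arrays between -1.68 and -1.48.

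Olfactory neuron genes were modestly lower. Of 18 genes of mature olfactory neurons, 12 fell, 0 of them 2-fold, 1 rose and 5 were not called, with medians of -0.34, -0.49 and -0.43 on the 3 arrays. Omp, the olfactory marker protein, had -0.29, -0.42 and -0.58 (adjusted p = 0.00227). Gng13 and Gnal, G protein subunits of odorant signalling, stood at -0.94 and -0.72, and Stoml3, a cilia protein of these neurons, at -0.72. At 4 weeks Omp had been 0.89 and the median of the 18 genes 0.44. Between the times 15 of the 18 differed downward at an adjusted p of at most 0.05. That rule was met by 30.7% of all names, in either direction. Cnga2, the odorant-gated channel, at -0.46 and Adcy3, the odorant-stimulated cyclase, at -0.71 were weaker calls: Cnga2 lost its call without replicate 1 or replicate 2, and Adcy3 without any one of the 3. Of 10 sustentacular cell genes 7 fell and 1 rose, with Cyp2g1, an olfactory P450, at -0.50; Ermn rose to 1.70 by its brightest probe and 0.18 by the other.

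Olfactory receptors, the odorant receptors of the sensory neurons, moved both ways. Of 403 olfactory receptors tested, of 1066 listed, 62 (against a background of 20.7% for all names) rose and 44 fell, with a median of 0.01, and 112 passed the filter through 1 channel. Of 61 vomeronasal receptors tested, which detect pheromones, 22 rose (against 20.7% of all names) and 2 fell (against 17%), with a median of 0.19, and 27 of the 61 passed the filter through 1 channel, so that the count gives no support for a direction. The receptors of both families have close copies. Motile cilia genes rose in 5 of 25 and fell in 3, shares near the 20.7% and 17% of all names. Their median of 0.08 became -0.15 under median centring.

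Synaptic and channel genes were mostly lower. Of 20 genes of synaptic vesicles and release, 10 fell and 4 rose. Synpr, synaptoporin, had -0.94, -0.93 and -0.71 (adjusted p = 0.00031) and had been at -0.57 at 4 weeks (adjusted p of the difference = 0.116). Cplx1, a complexin, stood at -1.27 and Gad1, which makes GABA, at -1.03. Cplx2 stood at 1.27 by its brightest probe, with others between -0.50 and 1.54. Syp, synaptophysin, at -0.39 lost its call without replicate 2 or replicate 3. Of 17 potassium channels 11 fell and 1 rose, which was Kcna4, between 1.49 and 1.55 on the 3 arrays. Axon guidance genes rose in 10 of 26 and fell in 2, with Dcc, a netrin receptor, at 1.67, 1.69 and 1.43, and Sema4c, a semaphorin, at 1.41, 1.34 and 1.16; the median of this list, 0.11, became -0.07 under median centring.

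Circadian clock genes moved in opposite directions in the arms of the loop, in which Bmal1 and Clock drive the Per and Rev-erb genes through E-boxes, and Rev-erb proteins repress Bmal1 through RORE elements. Of 11 genes of the Per arm 7 fell and 0 rose, and of 6 genes of the Bmal arm 5 rose and 0 fell. In each arm 1 member passed the filter through 1 channel and gives no support for a direction. In the Bmal arm this was Npas2, at 0.60, with its control channel well above background on 1 array. Dbp, a PAR leucine zipper factor, had -0.90, -1.03 and -1.24 (adjusted p = 0.00014), Nr1d1, Rev-erb alpha, had -0.52, -0.93 and -0.92, and Tef had -0.58, -0.51 and -0.54. Arntl, which encodes Bmal1, had 0.93, 0.77 and 0.39 and Nfil3, a repressor opposed to Dbp, had 1.37, 1.43 and 0.93. At 4 weeks Dbp was at 1.69 and Arntl at -0.90 (adjusted p of the difference = 1.34e-05 and 0.000184). Per1 was at 0.07 and -0.23 under median centring, and Clock at 0.46 (adjusted p = 0.0178) lost its call without replicate 2 or replicate 3. The hour at which tissue was taken is not given in the sources used here and its part was not tested.

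The promoter of Tef, at chr15:81802512-81802591, holds the E-box CACGTG and that of Nfil3, at chr13:52981040-52981119 on the minus strand, holds the RORE, whose letters GTAGGTCA read TGACCTAC on the printed strand, both from RefSeq on GRCm38 with the match in capitals.
Tef: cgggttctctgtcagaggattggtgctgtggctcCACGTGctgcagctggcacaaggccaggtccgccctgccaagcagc
Nfil3: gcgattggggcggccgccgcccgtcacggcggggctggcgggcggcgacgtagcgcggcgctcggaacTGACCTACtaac
Searched on both strands in the 250 bases before the start, the E-box was in 4 of 10 promoters of the Per arm, those of Bhlhe41, Ciart, Per1 and Tef, in 1 of 6 of the Bmal arm and in 6.02% of all promoters. The RORE was in 0 of 10, in 1 of 6 and in 0.517%. A match is a description of these letters in this window.

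Immediate early genes rose in 9 of 19 and fell in 1. Nr4a2 and Nr4a1, orphan nuclear receptors induced by many stimuli, had 1.83, 1.89 and 2.00, and 1.25, 1.26 and 1.18. Jund, the 1 that fell, stood at -0.44, and Fos and Dusp1 at 0.28 and 0.66; Jund and Dusp1 lost their call without replicate 2, and Fos without replicate 1 or replicate 2. Genes of the cell cycle rose in 8 of 21 and fell in 0, against 20.7% and 17% of all names. Cdc20, an activator of the anaphase complex, stood at 0.65 and Mki67, a marker of dividing cells, at 0.68. Ribosomal protein genes rose in 26 of 75 and fell in 2, against the same shares of all names.

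The study named 5 key genes in its account of DEP, from mice exposed for 4 weeks. It reported Cfap69 and Cyp26b1 as higher and Il1b, Il6 and Synpr as lower, with the same directions by qRT-PCR. Of these Synpr fell, as above, and Il6 was not tested because its probes did not pass the filter. Cfap69, a protein of olfactory cilia, had -0.01, 0.06 and 0.21 (adjusted p = 0.269) by its brightest probe after loess normalization and a mean of -0.24 under median centring (adjusted p = 0.0212), and its other probe had a mean of -0.35. Cyp26b1, which degrades retinoic acid, had -0.01, 0.05 and -0.29 (adjusted p = 0.512), and Il1b had -0.13, -0.06 and 0.10 (adjusted p = 0.735). The arrays of these genes straddled 0. At 4 weeks Cfap69, Cyp26b1 and Il1b were at 0.59, 0.89 and -0.92, and the adjusted p-values of the differences were 0.00239, 0.000918 and 0.000304. Gapdh, used as a reference gene, had 0.20, -0.08 and -0.60 by its brightest probe, and the means of its 7 probes ran from -1.01 to -0.14.

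Across all names, the ratio differed between 8 and 4 weeks for 6416 (30.7%) at an adjusted p of at most 0.05. Of the names called at both times, 2732 had the same sign and 1266 the opposite sign. Prl, prolactin, a hormone of the pituitary, had -1.72, -2.01 and -1.84 at 8 weeks and a mean of 2.68 at 4 weeks (adjusted p of the difference = 1.41e-06).

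**Figure D5:**
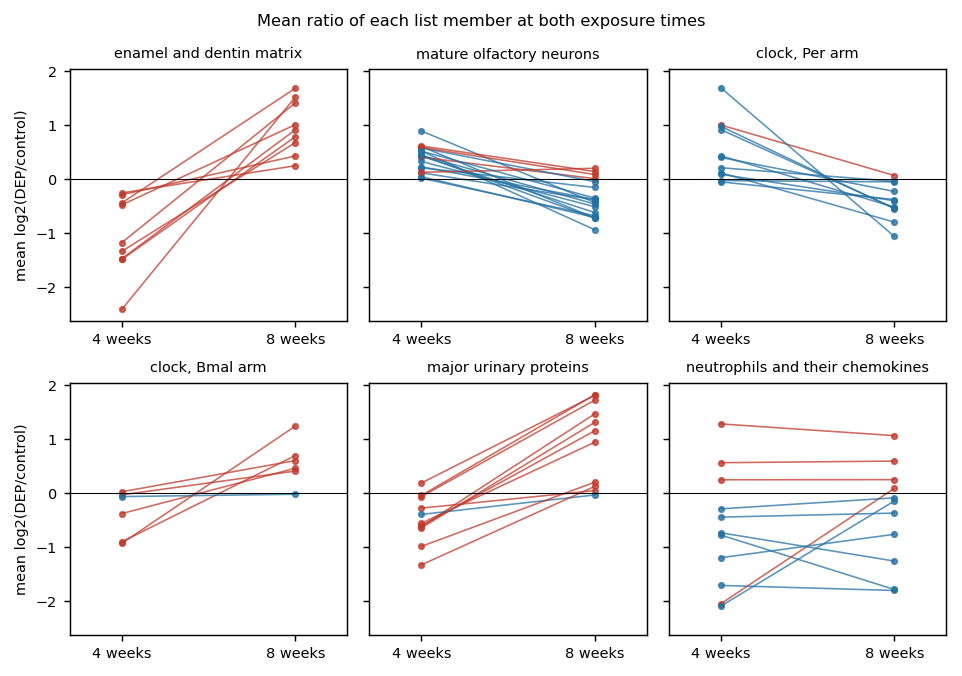
Mean log2 ratio of DEP over control (vertical axes) at 4 weeks (4 arrays) and 8 weeks (3 arrays) for each tested member of 6 gene lists, 1 line per gene, red where the 8-week mean is above 0 and blue where it is below. The lines of the enamel and dentin genes rise, from a median of -1.17 to 0.92, and those of mature olfactory neurons fall, from 0.44 to -0.41.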

How the data were processed

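Per the file headers, the authors deposited the output of Agilent Feature Extraction 10.10.1.1 for 2-colour mouse arrays, with median intensity of each of 44397 spots and its background, not normalized, processed intensity values and their deposited log10 ratio. The later normalization of the study's methods was not repeated. The median intensity values were corrected with limma 3.58.1 in R 4.3.3 by normexp (offset 50), fitted without spots flagged for background. With all spots kept in the fit, the fitted mean of replicate 2 of 8 weeks (DEP channel) moved from -11.8 to -67.5. Ratios were normalized by loess within arrays. Non-uniform spots were dropped and repeats of a probe averaged, leaving 39429 probes, of which 28330 matched 1 RefSeq gene. The test took 25350 probes, those that exceeded background clearly in DEP or control RNA on 2 or more of the 3 arrays of 8 weeks. The offset pulls ratios of dim probes towards 0. List members that passed this filter through 1 channel give no support for a direction. There was 1 in each of the Klk1, major urinary protein, fatty acid, lymph node and B cell lists. The potassium channel, immediate early and cell cycle lists had 2 each.

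One linear model over the 7 arrays with a mean for each exposure time gave limma's moderated test with Benjamini-Hochberg adjustment over all probes tested. A gene's value is that of its brightest tested probe. Genes named are the 15 highest and 15 lowest, members of gene lists, the study's key genes and the 5 largest differences between times in each direction. The members and lists were chosen with earlier results of these data known. Markers, lists and promoter letters are descriptions, with no test of a list. Some named genes are not reported here. Array number limits the precision. The alternatives were other background corrections, scalings, filters, models and arrays left out. In simulated data for 8 weeks against 0 over 20892 genes, the adjusted threshold recovered 89 of 100 genes changed by 1 on the log2 scale. It recovered 98 of 100 changed by 2, and called 29 unchanged genes. Median estimates were 0.705 and 1.45. The study's thresholds with a 2-fold change recovered only 12 and 72 of the same genes, and called 2 unchanged genes.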

Additional observations from a re-analysis of the deposited data

Results flagged for a closer look

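The ratio of DEP over control differed between 8 and 4 weeks for 6416 names, by limma's test of the difference with Benjamini-Hochberg adjustment. An effect of the slide and one of time cannot be told apart for any of them. The 5 largest differences upward on the log2 scale were 3.93 for Ambn, an enamel protein, 3.16 for Fa2h, 3.04 for Elovl4, 2.97 for Glycam1 and 2.93 for Scgb1b7. The 5 largest downward were -4.83 for Amy1, -4.54 for Prl, -4.38 for Smr3a, -3.42 for Bpifa2 and -3.42 for Chia1. On the 4 arrays of 4 weeks, 1 array lay apart from the others for 13 of 174 named genes, where chance gives about 1 in 20; groups of 3 arrays, as at 8 weeks, were not checked in this way. The gap to the nearest array, as a share of the whole range, was 0.942 for Scgb2b20, 0.923 for Bpifb2, 0.835 for Col1a1, 0.911 for Cxcl1, 0.873 for Klk1b5, 0.835 for Mpo, 0.887 for Muc5b, 0.943 for Myh4, 0.863 for Obp1a, 0.905 for Pip, 0.874 for Prpmp5, 0.877 for Scgb2b2 and 0.889 for Sprr2d. The array apart was replicate 1 for Scgb2b20, Cxcl1, Klk1b5, Muc5b, Myh4, Obp1a, Pip, Prpmp5, Scgb2b2 and Sprr2d, replicate 3 for Bpifb2 and replicate 4 for Col1a1 and Mpo. Mpo stood at -1.51 on replicate 4 and between -0.56 and -0.37 on the others.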

How the results depend on the processing

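The 2-fold counts held between 422 and 446 higher, 171 and 190 lower and 603 and 617 in all when each array of either time was left out in turn, while the adjusted counts ran from 2582 to 4753 higher, 1999 to 3954 lower and 4581 to 8707 in all, and the differences between times from 3911 to 6860. Replicate 2 of 8 weeks gave the lowest of these (2582, 1999, 4581 and 3911), and the cause was not tested. Median centring without loess gave 2646 higher and 6913 lower, and 248 and 323 at 2-fold. The deposited processed signals gave 1018 and 502 at 2-fold, 1520 in all. The methods' t-test after Benjamini-Hochberg gave 2587 higher, 2224 lower and 4811 in all, and 419 and 167 at the study's thresholds. With the replicate block the differences between times were 3313 and the calls at 8 weeks 5671; arrays of the same number did not deviate together (r of -0.01, -0.01 and 0.01), so they share only a number. Of 174 named genes, 155 were called and 137 kept their call under every alternative run. Among the 18 that lost it under at least 1 were Fos, Dusp1, Nfkbia, Pip, Socs3, Syp, Adcy3, Il1r1, Cnga2, Krt1, Clock, Cxcl13, Jund, Atp2a1, Cd4 and Muc2, of which Atp2a1, Cd4 and Muc2 lost it only under the methods' t-test. Median centring reversed Cfap69 to -0.24 and Per1 to -0.23, and the medians of motile cilia to -0.15, collagens to -0.10, matrix remodelling to -0.0722, macrophages to -0.10 and axon guidance to -0.0663. For the aryl hydrocarbon receptor and its targets, the median of -0.03 turned to 0.0492 without background correction and 0.0872 with processed signals. With both channels above background it was 0.0780. It ran from -0.0618 to 0.0412 with single arrays left out (0.0412 without replicate 1 of 8 weeks). The median of macrophages turned to -0.0145 with both channels above background. Leaving out population outlier spots, chosen after seeing the data, gave 4336 higher and 3558 lower.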

Other observations

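Some values rest on 1 array. For 147 names, 1 of the 3 arrays of 8 weeks lay more than 1 on the log2 scale from the nearest other, and 9 of these were called; for 37 names it lay more than 2 away, and 0 of these were called. Sp2 stood at -9.07 and Gucy1a2 at -7.90 on replicate 1. Of 4 Y-linked genes looked for in these female mice, 0 passed the filter on background.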
